A study of Mus musculus with 26 samples.

Results

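The lipoprotein assembly and secretion genes are 10 genes of the deposited count table, taken by symbol, out of 54532 genes in all: Apoa1, Apoa2, Apoa4, Apoa5, Apob, Apoc3, Apoe, Mttp, Lcat and Abca1. Each symbol matched 1 row, and all 10 were among the 14415 genes that passed the filter on low counts. They were measured by RNA-seq in the liver of 26 C57BL/6 mice given benoxacor, a herbicide safener (a compound added to herbicide products to protect the crop), by oral gavage. Dosing ran over 3 consecutive days, and the livers were collected 24 h after the final gavage. The doses were 0 mg/kg (5 mice), 0.5 mg/kg (5 mice), 5 mg/kg (8 mice) and 50 mg/kg (8 mice). Every mouse had first been acclimatised (4-8 weeks in the labels) while bedding was shared to even out the gut microbes. The labels do not state the sex of the mice or what the 0 mg/kg mice were gavaged with. The mouse numbers fall into a run of 11 mice from 619 to 632 (the 619 run), with 1, 2, 4 and 4 mice at the rising doses, and a run of 15 mice from 601 to 616 (the 601 run), with 4, 3, 4 and 4. What separates the runs is not stated. Mouse numbers follow the dose within a run, so dose and number order cannot be told apart.

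The liver exports fat by wrapping triglyceride and cholesteryl ester around a single large protein, apolipoprotein B, in the endoplasmic reticulum, a step that needs the microsomal triglyceride transfer protein encoded by Mttp. Smaller exchangeable apolipoproteins ride on the secreted particles and set how fast they are lipolysed and cleared, while apolipoprotein A1 takes up cholesterol from cells through the transporter ABCA1 to build high-density lipoprotein, whose cholesterol is then esterified by LCAT. The liver is the main source of most of these proteins. Apoa1, Apoc3, Apoa4 and Apoa5 lie side by side on chromosome 9, from 46228580 to 46271919 in mm10, a span of 43340 bases. Apoa2 lies on chromosome 1 (171225054 to 171226379), Apoe on chromosome 7 (19696109 to 19699188), Lcat on chromosome 8 (105939551 to 105943382), Apob on chromosome 12 (7977648 to 8016835), Mttp on chromosome 3 (138089854 to 138144968) and Abca1 on chromosome 4 (53030787 to 53159895).

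The 250 bases before the RefSeq start site (build GRCm38.p6) are shown for 4 of the genes. They were picked because Apoa2 and Apoe varied together from mouse to mouse while Apob and Abca1 went the opposite way. Of these opposite pairs, Apoa2 with Apob did not pass (r = -0.37, adjusted permutation p = 0.0693). RefSeq sequence was matched for 9 of the 10 genes. Capitals mark 2 motifs searched on both strands, TATAA, the core of the TATA box, and CAAAGNNC, a core of sites bound by the liver factor HNF4.
Apoa2 chr1:171224804-171225053 plus strand: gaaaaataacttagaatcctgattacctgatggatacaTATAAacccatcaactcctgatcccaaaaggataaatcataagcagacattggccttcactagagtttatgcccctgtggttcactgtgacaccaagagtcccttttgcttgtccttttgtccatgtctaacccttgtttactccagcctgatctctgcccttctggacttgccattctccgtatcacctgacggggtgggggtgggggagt
Apoe chr7:19699189-19699438 minus strand: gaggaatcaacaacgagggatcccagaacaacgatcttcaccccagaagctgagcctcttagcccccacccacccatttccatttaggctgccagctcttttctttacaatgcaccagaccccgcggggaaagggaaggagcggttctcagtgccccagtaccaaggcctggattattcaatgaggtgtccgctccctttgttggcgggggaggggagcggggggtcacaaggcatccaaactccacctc
Apob chr12:7977427-7977676 plus strand: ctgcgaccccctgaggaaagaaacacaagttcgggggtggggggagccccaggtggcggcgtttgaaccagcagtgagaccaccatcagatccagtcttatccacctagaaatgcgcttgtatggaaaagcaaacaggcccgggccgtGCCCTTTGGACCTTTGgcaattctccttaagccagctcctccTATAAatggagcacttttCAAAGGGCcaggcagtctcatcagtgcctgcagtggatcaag
Abca1 chr4:53159896-53160145 minus strand: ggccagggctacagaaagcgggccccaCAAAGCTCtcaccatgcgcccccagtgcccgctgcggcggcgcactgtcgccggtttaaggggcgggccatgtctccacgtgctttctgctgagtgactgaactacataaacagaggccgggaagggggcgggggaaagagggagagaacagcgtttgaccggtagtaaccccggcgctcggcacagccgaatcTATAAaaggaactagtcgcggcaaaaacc
TATAA was found in 23.4% and CAAAGNNC in 15.4% of all 27025 promoters of this length. Apob held TATAA at -60 from the start and CAAAGNNC at -102, -94 and -42, with the hits at -102 and -94 adjacent and on the opposite strand to the gene. Abca1 held TATAA at -29 and CAAAGNNC at -223, Apoa2 held TATAA alone at -212, and Apoe held neither. Of the genes not shown, Apoa4 held CAAAGNNC at -182, Apoa5 held TATAA at -56, and Apoa1, Mttp and Lcat held neither. These are matches of letters, not measured binding, and whether they go with the direction of variation was not tested.

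Libraries held 5433074 to 9088626 counts (median 7105531), and the 10 genes took 2.36% to 4.18% of them. Levels are CPM, read counts over the library total on a common scale, corrected for library composition by TMM. Hepatocyte markers summed to 46800 CPM or more in every library, with Alb and the other 7 listed genes all detected. Their sums were uneven, highest in 5 mg/kg replicate 6 (131465 CPM) and 0.5 mg/kg replicate 2 (125276 CPM), against at most 65229 CPM at 0 mg/kg. The sum was also high in 50 mg/kg replicate 8 (112048 CPM) and in another library at 0.5 mg/kg (109280 CPM). In 5 mg/kg replicate 8 the 8 adrenal and steroid cell markers summed to 3995 CPM, against at most 136 CPM in any other library, and the defining steroid enzyme gene Cyp11a1 had 473 CPM there and 0 elsewhere. The 8 pancreas and fat markers summed to 574 CPM in 5 mg/kg replicate 8 and 350 CPM in 5 mg/kg replicate 6, against 42.0 CPM or less elsewhere. The 9 acute phase genes summed to 14421 CPM in 0.5 mg/kg replicate 2 and 9062 CPM in 0.5 mg/kg replicate 1, against 5994 CPM or less elsewhere. The enterocyte list ranged from 53.9 to 282 CPM and the 10 Kupffer and macrophage markers from 142 to 352 CPM. Main fold changes at 0.5 mg/kg are also given without replicates 1 and 2, and those at 5 mg/kg without replicates 6 and 8. At 50 mg/kg only single libraries were left out.

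Exon length here is the merged length of all annotated exons of a gene, which can exceed the length of its main transcript. The order of the genes depends on this measure, and Apoa4 and Apoa5 also share exon bases with opposite-strand genes. Compared per exon length, the genes for the small apolipoproteins of high-density and remnant particles led. Apoa2 had 7020 ± 2457 CPM per kb (SD, n = 26), Apoe 5314 ± 1769, Apoa1 4010 ± 1352 and Apoc3 939 ± 274. Apob followed at 619 ± 116 and Apoa5 at 449 ± 96.5. Lcat had 167 ± 42.3, Apoa4 ranged from 27.4 to 246, and Mttp had 41.9 ± 7.05 and Abca1 29.1 ± 7.26. Apoa1 lay above Apoc3, and Apoa5 above Lcat, in 26 of 26 mice. The order of Apoc3 over Apob and of Mttp over Abca1 held in 21 of 26 mice each, so these neighbours overlapped in the other mice. The plot of levels per exon length shows the 10 genes from the highest to the lowest mean.

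**Figure D1:**
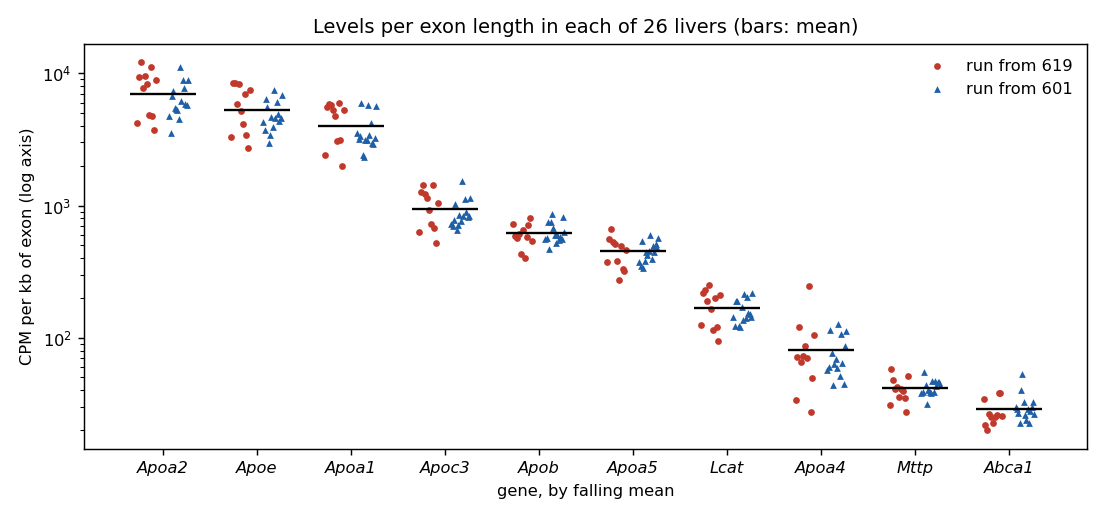
Level of each gene in CPM per kb of merged exon length (log axis) in 26 livers. Circles mark the 619 run, triangles the 601 run and bars the mean. Apoa2 (7020), Apoe (5314) and Apoa1 (4010) stand above the rest, and Abca1 (29.1) is lowest.

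The comparison of 50 with 0 mg/kg asked whether the genes that build and secrete lipoproteins differed at the highest dose. In edgeR (quasi-likelihood test, Benjamini-Hochberg adjustment, threshold 0.05) 0 of the 10 passed (smallest adjusted p = 0.987), against 0.00694% of all tested genes, which is 1 gene of 14415. An unadjusted p under 0.05 was found for 0 of the 10 and for 737 of all genes, and DESeq2 and limma-voom also called 0 of the 10. Fold changes were positive for 9 of the 10 with a median of 0.12 on the log2 scale, against 51.1% of all tested genes and a median of 0.0054. In an alternative fit with a term for transcript length in each library, described further on, 6 were positive and 4 negative. Since most of the 10 genes varied together across mice, such counts of direction are not independent observations. In bulk liver, fewer hepatocytes and less RNA per hepatocyte cannot be told apart. The largest standard error was 0.41 (Apoa4) and the smallest 0.16 (Mttp).

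Apob and Mttp make the core of the secreted particle. Apob, the scaffold of very-low-density lipoprotein, ranged from 7507 CPM through a median of 8417 to 11412 CPM in the 8 mice at 50 mg/kg, against 7765, 7968, 10469, 6478 and 10018 CPM in the 5 mice at 0 mg/kg. The groups overlapped, with 2 of the 8 dosed mice above the highest control and 0 below the lowest. Its log2 fold change was 0.11 ± 0.18 (SE, 95% interval -0.26 to 0.48, adjusted p = 0.997 in edgeR). At 0.5 mg/kg it had 10373, 12048, 9455, 8208 and 7943 CPM, and at 5 mg/kg it ranged from 5589.7 through 7975 to 9027 CPM. The lowest values of all were in 5 mg/kg replicates 8 and 6, the libraries with the highest pancreas and fat marker sums. Replicate 8 also had the highest adrenal marker sum. The highest Apob value was in 0.5 mg/kg replicate 2, the library with the most acute phase RNA. The part of these markers in the Apob values was not tested.

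Mttp, which loads lipid on to apolipoprotein B, had nearly the same mean in dosed and control mice. It averaged 258 ± 47.0 CPM at 50 mg/kg (SD, n = 8) and 257 ± 55.9 CPM in the controls (n = 5). The individual values ran from 170 through 272 to 319 CPM at 50 mg/kg, against 238, 240, 344, 272 and 193 CPM at 0 mg/kg, so the controls spanned nearly the same range. The log2 fold change was 0.03 ± 0.16 with an interval of -0.30 to 0.35, which leaves room for changes of up to that size in either direction. Mttp averaged 268 ± 61.6 CPM in the 0.5 mg/kg mice and 257 ± 24.8 CPM in the 5 mg/kg mice. Mttp shares 132 exon bases with Gm43691 and 457 with Trmt10a, both on the opposite strand, which had 8.66% and 2.68% as many reads, and reads of overlapping genes cannot be told apart here.

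The main proteins of high-density lipoprotein are encoded by Apoa1 and Apoa2. Apoa2 had the largest positive log2 fold change at 5 mg/kg and at 0.5 mg/kg among the 10. With the transcript length term its log2 fold changes were 0.10 at 0.5, 0.19 at 5 and 0.18 at 50 against 0 mg/kg, and at 0.5 mg/kg Abca1 (0.37), Apob (0.27) and Apoa5 (0.16) then lay above it. It ranged from 2012 through 3637 to 6010.0 CPM at 50 mg/kg, against 2548, 1885, 3608, 3935 and 2273 CPM at 0 mg/kg. Of the 8 mice at 50 mg/kg, 4 lay above the highest control and 0 below the lowest. The log2 fold change was 0.37 ± 0.28 (interval -0.22 to 0.95, adjusted p = 0.987), and it was 0.77 in the 619 run, with its 1 control mouse, and 0.33 in the 601 run. Apoa1 averaged 4808 ± 1841 CPM at 50 mg/kg and 4560.5 ± 1648 CPM in the controls, with a log2 fold change of -0.03 ± 0.29 that turned to 0.77 in the 619 run. Among the controls Apoa1 had 4405, 3924, 4140.2, 7349 and 2984 CPM, so the highest of all 26 values was in a control (replicate 4).

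Apoe encodes the ligand that liver receptors use to clear remnant particles. It ranged from 5812 through 10203 to 15951 CPM at 50 mg/kg, against 9081, 7955, 13766, 11896 and 7025 CPM at 0 mg/kg. Dosed mice lay on both sides of the controls, with 3 of 8 above the highest and 1 below the lowest. The log2 fold change was 0.08 ± 0.29, with an interval of -0.51 to 0.67. At 0.5 mg/kg the values were 6338, 7297, 10040.3, 17952 and 18073 CPM, with the 2 highest in the 2 mice of the 619 run. The lowest Apoe value of all 26 mice was in 50 mg/kg replicate 7, which was also lowest of all for Apoa1, Apoc3, Mttp and Lcat.

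Apoc3, which slows the clearance of triglyceride-rich particles, and Apoa5, which speeds their lipolysis, lie in the same cluster and have opposite roles. Apoc3 averaged 933 ± 288 CPM at 50 mg/kg and 784 ± 155 CPM in the controls, with a log2 fold change of 0.21 ± 0.24. Apoa5 averaged 1136 ± 219 CPM at 50 mg/kg and 994 ± 208 CPM in the controls, with 0.21 ± 0.19. Both groups overlapped for both genes. Exons of Apoa5 share 524 bases with Gm47544 on the opposite strand, whose reads amounted to 57.6% of the Apoa5 reads, and since the strand setting is not given in the sources used here, the reads of the 2 genes cannot be told apart.

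Apoa4, an exchangeable apolipoprotein of gut and, in the mouse, of liver, varied most. It ranged from 49.7 through 137 to 446 CPM at 50 mg/kg, against 103, 109, 207, 139 and 61.1 CPM at 0 mg/kg. Both the highest and the lowest of all 26 values were at 50 mg/kg, in replicates 5 and 6. The log2 fold change of 0.38 ± 0.41 became 0.08 without replicate 5. Apoa4 shares exon bases with Gm10680 and Gm47528 on the opposite strand, which had 68.1% and 26.4% as many reads and followed it across mice with r of 0.99 and 0.98. The enterocyte list was highest, at 282 CPM, in 0 mg/kg replicate 5, where Apoa4 had its second lowest value (61.1 CPM).

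Lcat and Abca1 act on cholesterol in high-density lipoprotein. Lcat averaged 216 ± 59.7 CPM at 50 mg/kg and 207 ± 45.3 CPM in the controls, with a log2 fold change of 0.03 ± 0.22 and 3 of 8 dosed mice above the highest control and 2 below the lowest. Abca1 ranged from 264 through 299 to 397 CPM at 50 mg/kg, against 312, 298, 279, 233 and 359 CPM at 0 mg/kg. The ranges overlapped, with 2 of 8 dosed mice above the highest control. The Abca1 log2 fold change was 0.13 ± 0.18 (interval -0.24 to 0.50), and -0.10 in the 619 run against 0.10 in the 601 run. No gene of the 10 separated 50 from 0 mg/kg completely, which 0.166% of all tested genes did.

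**Figure D2:**
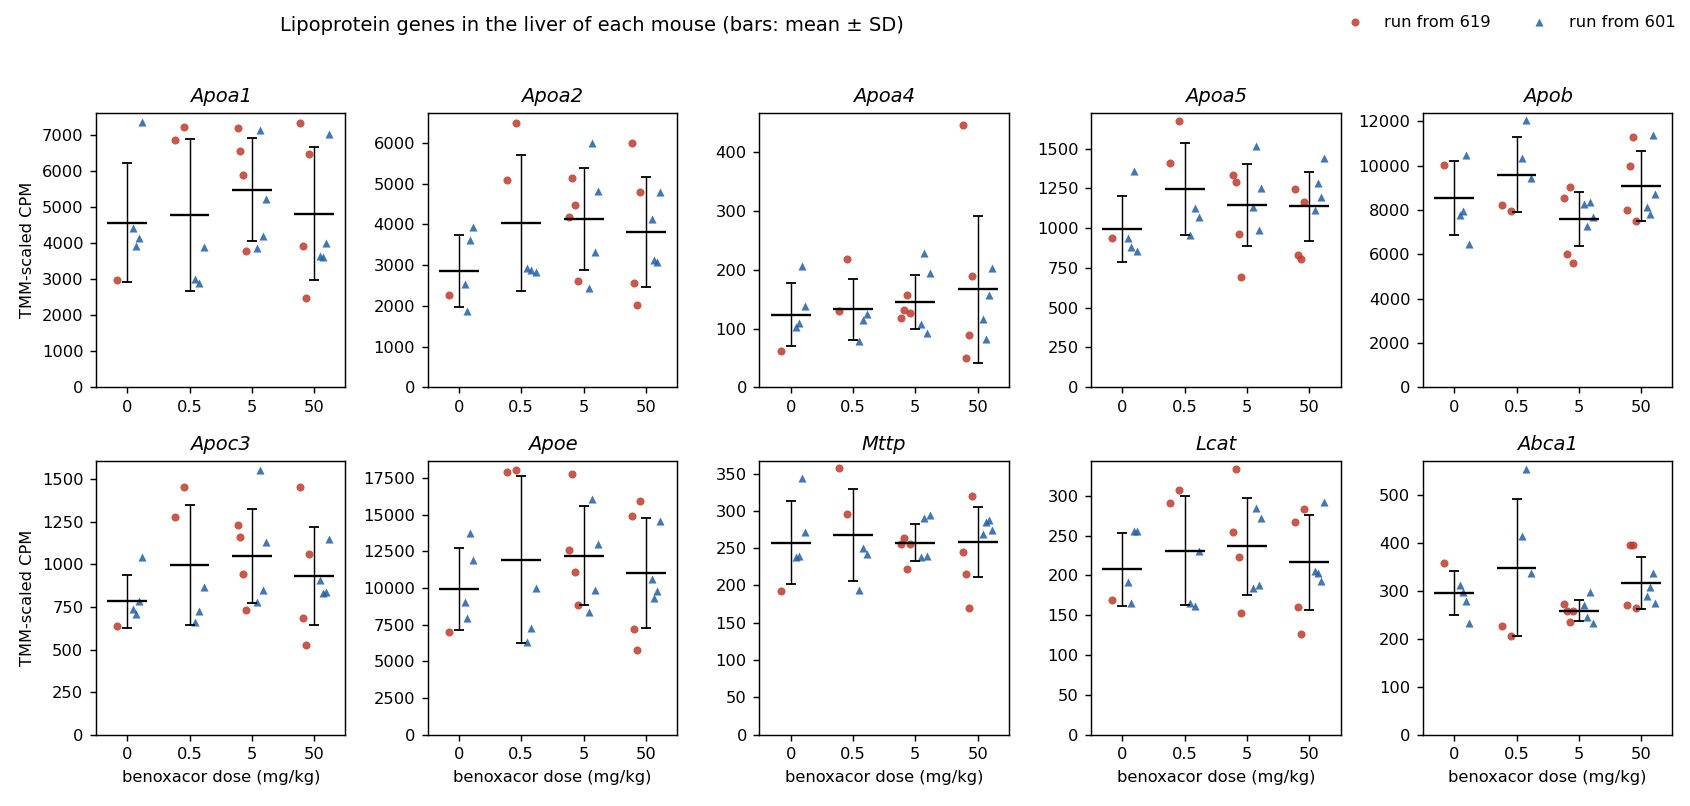
TMM-scaled CPM of the 10 genes by benoxacor dose in mg/kg, 1 point per mouse, with circles for the 619 run and triangles for the 601 run, and bars for the mean ± SD. Every dose overlaps 0 mg/kg in each panel, and at 0.5 mg/kg the circles and triangles separate.

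The lower doses share the same 5 control mice with the highest dose, so their values are set side by side and not read against each other. At 5 against 0 mg/kg edgeR called 0 of the 10 (smallest adjusted p = 0.780), as it did 0% of all tested genes, with 0 of the 10 and 891 of all genes at an unadjusted p under 0.05, and DESeq2 called 4 genes, none of the 10. Fold changes were positive for 8 of the 10 (median 0.17), against 51.9% of all tested genes (median 0.012). With the transcript length term 4 of the 10 were positive. Apoa2 had 0.48 ± 0.29 and Apoc3 0.38 ± 0.24, while Apob had -0.15 ± 0.18 and Abca1 -0.17 ± 0.18. Without 5 mg/kg replicates 6 and 8 these were 0.52, 0.44, -0.06 and -0.18. With 0 mg/kg replicate 5 left out, Apob had -0.04 and Abca1 -0.02. Apoa2 at 5 mg/kg ran from 2429 through 4332 to 5997 CPM, with 5 of 8 mice above the highest control, and Abca1 ran from 233 through 259 to 298 CPM, with 1 of 8 below the lowest control. None of the 10 separated from the controls, against 0.222% of all tested genes.

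At 0.5 against 0 mg/kg edgeR again called 0 of the 10 (smallest adjusted p = 0.781) and 0% of all tested genes, with 0 and 1008 at an unadjusted p under 0.05, and DESeq2 called 7 genes, none of the 10. Fold changes were positive for 9 of the 10 (median 0.17), against 50.8% of all tested genes (median 0.0049). They were led by Apoa2 (0.44 ± 0.31) and Apoa5 (0.35 ± 0.21), and 5 of the 10 were positive with the transcript length term. With replicates 1 and 2, high in acute phase RNA, left out, Apoa2 had 0.70, Apoa5 0.55 and Apoc3 0.60, against 0.31 for Apoc3 with them (adjusted p = 0.421 for Apoa5 and 0.449 for Apoc3 without them, in edgeR). Complete separation from the controls was found for 0 of the 10 and for 1.4% of all tested genes. The mice at this dose were not alike. In all 10 genes the 2 mice of the 619 run lay outside the range of the 3 mice of the 601 run, 8 genes higher and Apob and Abca1 lower, and 49% of all tested genes separated these mice as well. The same split of runs separated 0 of the 10 within 5 mg/kg (5.85% of all tested genes) and 0 within 50 mg/kg (1.64%). Those doses had 4 mice in each run, where complete separation is a stricter condition than with 2 against 3 mice. The counts at the 3 doses are therefore not alike. Apoa1, for example, had 6843 and 7208 CPM in the 619 run, against 2999, 2881 and 3878 CPM in the 601 run. Abca1 showed the reverse, with 228 and 206 CPM against 416, 554 and 337 CPM.

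The 2 highest Abca1 values of all mice thus came from 0.5 mg/kg replicates 2 and 1, the 2 libraries with the highest acute phase sums. Without these 2 mice the Abca1 log2 fold change of 0.23 ± 0.20 turned to -0.22, and that of Apoe of 0.17 ± 0.32 moved to 0.58. Without replicate 2 alone the Abca1 value was 0.00023. Without both mice, Lcat had 0.41, against 0.13 with all mice, Mttp 0.28, against 0.08, Apoa4 0.32, against 0.06, Apoa1 0.29, against -0.06, and Apob -0.0037, against 0.18. Within the 619 run the Apoe and Abca1 values were 1.39 and -0.70, and within the 601 run they were -0.46 and 0.61. The Abca1 value in the 601 run had an adjusted p of 0.115 in edgeR, the smallest of any member under the alternatives run. A test of the difference between the runs in this contrast was not made, since the 619 run has 1 control mouse.

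At 50 against 5 mg/kg, the pair of doses with 4 mice in each run, 0 of the 10 passed (smallest adjusted p = 0.962), as did 0% of all tested genes, with 0 and 699 at an unadjusted p under 0.05. None separated these doses completely, against 0.00694% of all tested genes. Fold changes were negative for 6 of the 10, with a median of -0.06. Abca1 (0.29 ± 0.16, unadjusted p = 0.0686 in edgeR) and Apob (0.26 ± 0.15) had the largest positive values, and Abca1 lay above every 5 mg/kg mouse in 4 of 8 mice at 50 mg/kg. Abca1 had 0.38 in the 619 run and 0.22 in the 601 run, and Apob 0.34 and 0.20. Without 5 mg/kg replicates 6 and 8, Abca1 had 0.31 and Apob 0.15. The interaction of run with these doses called 0 of the 10 and 0% of 13418 genes, with 656 at an unadjusted p under 0.05.

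Between the runs, with dose in the fit, 0 of the 10 passed (smallest adjusted p = 0.811), against 0.0902% of all tested genes. The 13 genes called included the clock genes Arntl and Npas2 and the clock output gene Noct. Apoa1 averaged 5510.2 ± 1844 CPM in the 619 run (SD, n = 11) and 4551 ± 1463 CPM in the 601 run (n = 15), with a log2 fold change of 0.27 ± 0.20. Apoe averaged 12483 ± 4731 and 10538 ± 2800.2 CPM in the same order, with 0.21 ± 0.20. Without 0.5 mg/kg replicates 1 and 2, which are in the 601 run, Apoa1 had 0.13 and Apoe 0.04, and with the transcript length term they had 0.12 and 0.04. Apoe lay above every mouse of the 601 run in 3 of 11 mice of the 619 run and below every one in 1, so the 619 run held both ends of the range. Abca1 had -0.10 ± 0.13, and Mttp -0.06 ± 0.11. None of the 10 separated the runs, and 0% of all tested genes did.

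**Figure D3:**
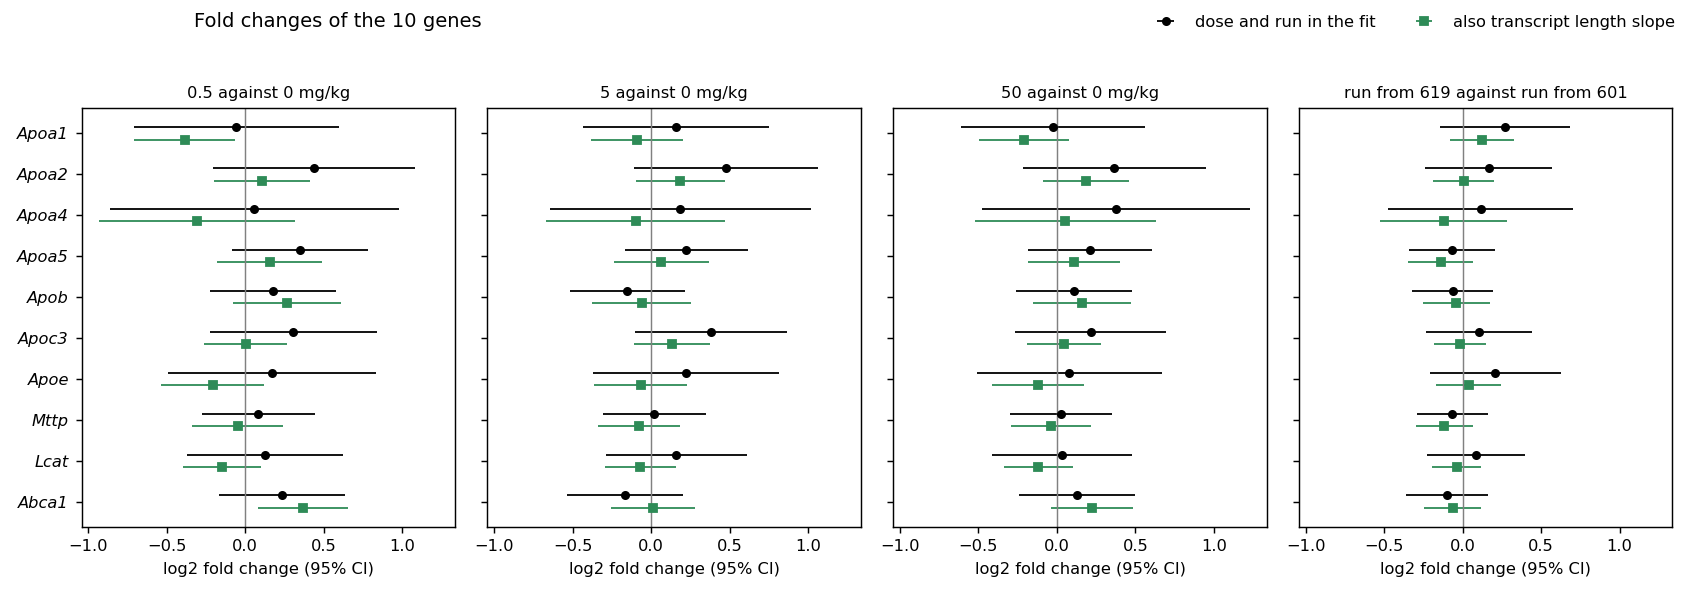
Log2 fold changes of the 10 genes with 95% intervals in 4 comparisons, from the fit with dose and run (circles) and from the fit that also holds the transcript length slope of each library (squares). With dose and run alone every interval crosses 0, and with the slope the interval of Abca1 at 0.5 against 0 mg/kg (0.08 to 0.65) and that of Apoa1 (-0.71 to -0.06) do not.

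Mice of 1 dose and run differed widely in some of the genes. After dose and run, the residual SD on the log2 scale was 0.71 for Apoa4, at the 97.8th percentile of 8662 genes with a mean of at least 10 CPM. Apoa1, Apoa2 and Apoe each had 0.51, at the 93.2th to 93.3th percentile, whereas Apob had 0.26 and Mttp 0.27, close to the median gene (0.27). Apoc3 had 0.42, Lcat 0.40, Apoa5 0.32 and Abca1 0.31.

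Most pairs of the 10 genes varied together across the 26 mice. Of 45 pairs, 41 passed an adjusted p of 0.05 for both Pearson's r and Spearman's rho in two-sided permutation tests of 100000 resamples. Of these, 29 were positive and 12 negative. The share of passing pairs among all tested genes was not computed, and genes outside the 10 also followed members closely (Rps2 with Apoa1, r = 0.95). Whether the count is particular to these genes was not tested. The negative pairs all joined Apob or Abca1 with one of the other genes. Apoe and Lcat were closest (r = 0.96, rho = 0.96, adjusted permutation p = 3.46e-05, the smallest these permutations can give after adjustment), with r of 0.97 in the 619 run and 0.95 in the 601 run. Apoa2 and Apoc3, on different chromosomes, had r of 0.93 (rho = 0.93), and Apoa1 and Apoc3, neighbours in the cluster, had 0.91 (rho = 0.86). Leaving out the 2 mice farthest from the median left these at 0.95, 0.94 and 0.92.

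Abca1 ran opposite to Apoa1, whose protein it lipidates, with r of -0.78 (rho = -0.75, adjusted permutation p = 3.46e-05), and opposite to Apoe with -0.78 (rho = -0.79). Without the 2 farthest mice these were -0.78 and -0.73. Abca1 and Apob went together (r = 0.71, rho = 0.69, adjusted permutation p = 0.00019), with 0.61 in the 619 run and 0.78 in the 601 run, and with 0.68 when the 2 farthest mice were left out. For Apoa5 and Apob no relation passed (r = -0.01, rho = -0.12, adjusted permutation p = 0.977). Of the 45 pairs, 44 kept 1 sign in both runs. Mttp and Apob, which act in the same step, had r of -0.33 (rho = -0.37, adjusted permutation p = 0.101).

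**Figure D4:**
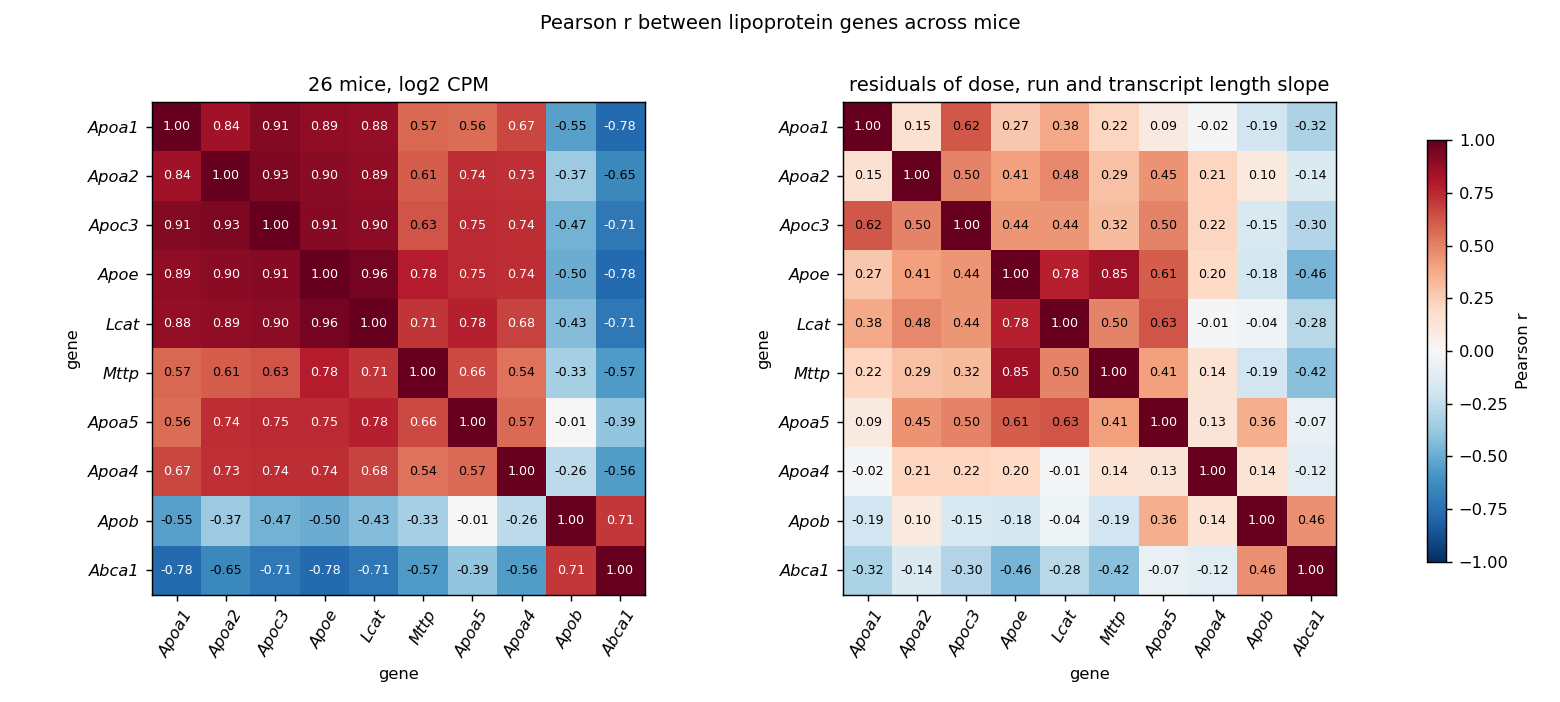
Pearson r between the log2 CPM of the 10 genes over 26 mice (left) and between residuals of dose, run and transcript length slope (right), coloured from -1 to 1. On the left Apob and Abca1 stand apart from the other 8 genes, and on the right the median absolute r is 0.293, against 0.714 on the left.

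The relations went with transcript length, with Mttp as an exception. Exon length was 537 bases for Apoa2, 1014 for Apoc3, 1236 for Apoa1, 1342 for Lcat, 1815 for Apoa4, 2138 for Apoe and 2522 for Apoa5, against 6206 for Mttp, 10363 for Abca1 and 13934 for Apob. For each library a transcript length slope was taken over 8114 other protein-coding genes, as the slope of log2 CPM, centred on each gene's mean, against log2 exon length. Despite its name, the slope uses merged exon length, not the length of the transcripts present. The slope was lowest in 0.5 mg/kg replicate 5 (-0.143), where genes of long exon length were relatively low. It was highest in 50 mg/kg replicate 7 (0.122), where they were relatively high. It averaged 0.041 ± 0.062 at 0 mg/kg (SD, n = 5), -0.022 ± 0.093 at 0.5 mg/kg (n = 5), -0.017 ± 0.068 at 5 mg/kg (n = 8) and 0.005 ± 0.090 at 50 mg/kg (n = 8). At 0.5 mg/kg the 2 mice of the 619 run had -0.089 and -0.143, against 0.057, 0.074 and -0.007 in the 601 run.

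Apoa2 followed this slope with r of -0.93 (rho = -0.92), Apoc3 with -0.92 (rho = -0.93) and Apoe with -0.92 (rho = -0.92), each with an adjusted permutation p of 1.67e-05 over 10 genes. Abca1 had 0.67 (rho = 0.72, adjusted permutation p = 0.000143) and Apob 0.42 (rho = 0.42, adjusted permutation p = 0.0328). Mttp, long but on the side of the short genes, had -0.60 (rho = -0.63, adjusted permutation p = 0.00137). Leaving out the 2 mice with the most extreme slopes left -0.91 for Apoa2, -0.90 for Apoe and 0.59 for Abca1, and 0.36 for Apob. Within the 619 run and the 601 run Apoe had -0.97 and -0.82, and Abca1 0.84 and 0.50. Among 8662 genes ranked by r with the slope, Apoa2 lay at the 0.323th percentile, Apoc3 at the 0.404th and Apoe at the 0.531th. Lcat (1.06th) and Apoa1 (1.82th) were also near the negative end, while Apob lay at the 77.3th and Abca1 at the 91.9th. Other genes followed the slope as well, since 22.6% of the 8662 had an r below that of Mttp.

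**Figure D5:**
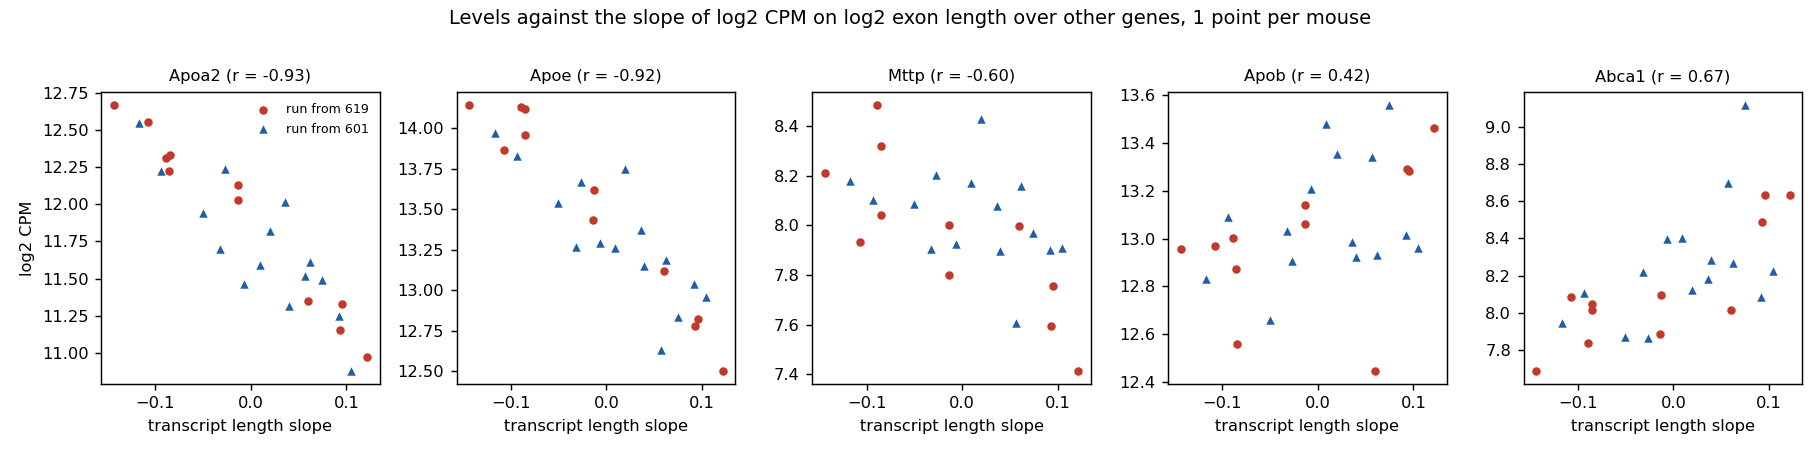
Log2 CPM of Apoa2, Apoe, Mttp, Apob and Abca1 against the transcript length slope of each of 26 libraries, with circles for the 619 run and triangles for the 601 run. Apoa2 (r = -0.93) and Apoe (r = -0.92) fall along the axis, Mttp (r = -0.60) less tightly, and Apob (0.42) and Abca1 (0.67) climb.

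Beyond dose and run, the slope took up 85.5% of the residual variance of Apoa2, 85.2% of that of Apoe, 55.8% for Abca1, 41.3% for Mttp and 22.6% for Apob. With the slope removed as well, the median absolute r between the genes was 0.293, against 0.744 on residuals of dose and run alone, and 5 pairs changed sign. Some pairs stayed high on these residuals, with 0.85 for Apoe and Mttp, 0.78 for Apoe and Lcat and 0.63 for Apoa5 and Lcat. Apoa1 and Apoc3 had 0.62, and Apob and Abca1 0.46. Other pairs fell further from their values on residuals of dose and run alone. Apoa1 and Abca1 had -0.32, against -0.77, and Apoe and Abca1 -0.46, against -0.81. Apoa2 and Apoc3 had 0.50, against 0.93, and Apoa1 and Apoa2 0.15, against 0.87. With the slope in the edgeR fit the median SE of the 10 genes at 50 against 0 mg/kg was 0.14, against 0.23 without it, and 0 of the 10 passed. At 0.5 against 0 mg/kg that fit gave Abca1 0.37 ± 0.14 (adjusted p = 0.327) and Apoa1 -0.39 ± 0.16 (adjusted p = 0.359). What sets the slope was not tested.

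The genes most like each member over the 26 mice were chosen from 8652 others by Pearson r. Apoe was closest to Acadvl (r = 0.98), a mitochondrial fatty acid dehydrogenase, and Serpinf1 (0.97), a secreted serpin. Lcat was closest to F2 (0.96), prothrombin, and Serpinc1 (0.95), antithrombin, both secreted by the liver. Merged exon length did not sort all of these genes, as F2 had 4594 and Serpinc1 8546 bases, against 1342 for Lcat. This length counts the exons of every annotated transcript, and the lengths of the transcripts present were not measured. Apoa1 was closest to the ribosomal protein gene Rps2 (0.95) and to Oaz1 (0.95), and Apoa2 to Fau (0.95) and Sod1 (0.95). Mttp was closest to Aplp2 (0.91) and Ddb1 (0.89), and Apob to Tbc1d15 (0.90, 4261 bases) and Gm4788 (0.89, 3187 bases). Abca1 was closest to Zfp322a (0.91, 6263 bases) and Dnttip2 (0.89, 3309 bases), and Apoc3 to Gchfr (0.96, 645 bases) and Dcxr (0.96, 1144 bases). For Apoa4 the closest were its own overlapping genes Gm10680 and Gm47528, and for Apoa5 its overlapping gene Gm47544 (0.98) and then Galm (0.84).

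Of 82 other genes of lipoprotein metabolism, all of which passed the filter, 0 rose and 0 fell at 50 against 0 mg/kg. Positive values numbered 45, with a median log2 fold change of 0.03, against 51.1% and 0.0054 for all tested genes. Among those of smallest p was Nr1d1, a clock repressor (-1.27 ± 0.45, adjusted p = 0.868 in edgeR). The 11 other apolipoprotein genes were positive in 9 cases with a median of 0.12, the 25 genes of particle loading and export in 16, and the 21 regulators in 8. At 5 against 0 mg/kg 0 passed and Tmem41b, a lipid scramblase of the endoplasmic reticulum, had -0.36 ± 0.12 and Apoh 0.51 ± 0.23. At 0.5 against 0 mg/kg 0 passed, with -0.94 ± 0.30 for Ppargc1b, a nuclear receptor coactivator, and 0.82 ± 0.27 for Vmp1, also a scramblase, and both turned direction in the 619 run (0.05 and -0.22). Without replicates 1 and 2 of that dose Ppargc1b had -0.61 and Vmp1 0.53. At 50 against 5 mg/kg 0 passed, with -1.20 ± 0.38 for the lipid droplet gene Cidec, and -0.37 ± 0.12 for Dgat1, which makes triglyceride. Without 5 mg/kg replicates 6 and 8, the libraries with the highest pancreas and fat marker sums, Cidec had -0.14 and Dgat1 -0.21. In the 601 run alone Cidec had -0.20. The part of these markers in the Cidec and Dgat1 values was not tested.

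Between the runs 0 of the 82 passed in edgeR, with Scarb1, the receptor that takes up high-density lipoprotein cholesterol, at 0.48 ± 0.13 (adjusted p = 0.143). Scarb1 averaged 161 ± 43.9 CPM in the 619 run and 117 ± 24.4 CPM in the 601 run, with 6 of 11 mice above every mouse of the 601 run. DESeq2 called Scarb1 (adjusted p = 0.041), and with 1 mouse left out edgeR called it without 0 mg/kg replicate 5 (adjusted p = 0.039). In the interaction of run with 50 against 5 mg/kg 0 of the 81 tested passed, with Angptl4, a lipase inhibitor, at -1.45 ± 0.54 (adjusted p = 0.982).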

How the data were processed

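RNA from the liver of 26 mice was sequenced. The deposited values are read counts per gene, not normalised. The submitters' processing notes name bcl2fastq, featureCounts and mm10, and the labels name a Qiagen kit. Aligner, annotation, strand setting and versions are not stated in the sources used here. All 26 sample files equalled the combined table. Exon lengths and coordinates are from GENCODE M21 (54495 of 54532 gene IDs found), with the exons of all annotated transcripts of a gene merged.

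The members and gene lists were chosen with earlier results of these data known. Counts were filtered with filterByExpr (99.7% of reads kept), scaled by TMM and fitted over all mice with dose and run of mouse numbers in edgeR 4.0.16 (R 4.3.3, robust quasi-likelihood test, Benjamini-Hochberg adjustment over 14415 genes, threshold 0.05). The interaction was fitted on the 16 mice at 5 and 50 mg/kg. Log2 CPM used a prior count of 2. The test was also run on simulated counts, with genes drawn independently and no run effect. That simulation does not measure power for these 10 genes, which vary together. Each library is 1 mouse, and 76 pairs of libraries within a dose differed by 12 to 124 chi-square per degree of freedom, beyond sampling noise. Named genes were all 10 members, the 2 of smallest p among 82 pathway genes where none passed, and the 2 most like each member with a mean of 10 CPM or more; some genes that this rule names are not reported here. Alternatives were DESeq2 1.42.0, its size factors, limma-voom (limma 3.58.1), no filter, no run term, each run alone, libraries left out and, chosen after seeing the data, a transcript length slope in the fit. The split of mice by run within a dose was also chosen after seeing the data.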

Additional observations from a re-analysis of the deposited data

Results flagged for a closer look

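In 40 groups of 5 or 8 mice examined (10 genes at 4 doses), 2 had a mouse whose distance from its nearest neighbour was a large part of the whole range, and chance flags about 1 group in 20. Apoa4 in 50 mg/kg replicate 5 had 446.4 CPM, with the next mouse at 203.6 CPM, so the gap was 0.612 of the range. Apoa5 in 0 mg/kg replicate 3 had 1360 CPM, with the next mouse at 937.5 CPM and a gap of 0.836 of the range. Both genes share exon bases with genes on the opposite strand, and the part of these in the values was not tested. Without 50 mg/kg replicate 5 the Apoa4 log2 fold change at 50 against 0 mg/kg was 0.08, against 0.38 with it, and without 0 mg/kg replicate 3 that of Apoa5 was 0.34, against 0.21. No member passed the interaction of run with dose.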

How the results depend on the processing

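Over 420 values of the 10 genes under alternatives that do not leave out a single mouse, 371 kept their direction, 49 turned it and 0 passed the threshold (smallest adjusted p = 0.115 in edgeR), and with 1 mouse left out 729 of 780 kept it, 51 turned it and 0 passed (smallest adjusted p = 0.449 in edgeR). Of the other named genes, 92 of 96 and 184 of 188 values kept direction and side. Scarb1 was called between the runs by DESeq2, and by edgeR without 0 mg/kg replicate 5. The transcript length slope was chosen after seeing the data, and the pairs of libraries left out were chosen with earlier results known. The cause of each turn was not tested. No paired analysis was possible because the labels give no replicate numbers shared between doses. There were 5 controls, 1 of them in the 619 run. For 50 against 0 mg/kg, the log2 fold changes that turned direction were Abca1 -0.1035, Apoa1 0.7715 and Apob -0.1158 in the 619 run, Apoa1 0.0761 without the run term. Others were Apoe -0.1202, Lcat -0.1173 and Mttp -0.0366 with the length slope. With 1 mouse left out, Apoa1 ran from -0.2545 to 0.2218, Apoe ran from -0.1130 to 0.2304, Lcat ran from -0.0892 to 0.1233 and Mttp ran from -0.0951 to 0.1455. For 5 against 0 mg/kg, the log2 fold changes that turned direction were Abca1 0.0146, Apoa1 -0.0880, Apoa4 -0.0986, Apoe -0.0665, Lcat -0.0679 and Mttp -0.0764 with the length slope, Mttp -0.0005 without the run term. Another was Mttp -0.0536 in the 601 run. With 1 mouse left out, Apoa1 ran from -0.0595 to 0.4061, Apoa4 ran from -0.0618 to 0.4497 and Mttp ran from -0.0873 to 0.1402. For 0.5 against 0 mg/kg, the log2 fold changes that turned direction were Abca1 -0.6969, Apoa1 1.2625, Apob -0.2840, Ppargc1b 0.0539 and Vmp1 -0.2220 in the 619 run, Abca1 -0.2154, Apoa1 0.2862 and Apob -0.0037 without 0.5 mg/kg replicates 1 and 2. Others were Apoa1 0.0624 without the run term, Apoa2 -0.0845, Apoa4 -0.4229, Apoc3 -0.1564, Apoe -0.4611, Lcat -0.2509 and Mttp -0.2815 in the 601 run. Others were Apoa4 -0.3098, Apoe -0.2084, Lcat -0.1484 and Mttp -0.0489 with the length slope. With 1 mouse left out, Apoa1 ran from -0.3028 to 0.1886, Apoa4 ran from -0.2220 to 0.3206, Apoe ran from -0.0400 to 0.3538, Lcat ran from -0.0070 to 0.2361 and Mttp ran from -0.0489 to 0.2018. For 50 against 5 mg/kg, the log2 fold changes that turned direction were Apoa4 -0.0432 and Mttp -0.0132 by limma-voom, Apoa4 -0.1503 and Apoa5 0.0498 in the 601 run. Others were Apoa5 0.0432 with the length slope, Mttp -0.0061 with DESeq2 size factors. Others were Mttp -0.0060 by DESeq2, Mttp -0.0045 with no filter. Another was Mttp -0.0568 in the 619 run. With 1 mouse left out, Apoa2 ran from -0.2259 to 0.0108, Apoa4 ran from -0.2070 to 0.3265, Apoa5 ran from -0.1014 to 0.0525 and Mttp ran from -0.0569 to 0.0732. For the 619 run against the 601 run, the log2 fold changes that turned direction were Abca1 0.0086, Apoc3 -0.0111 and Lcat -0.0255 without 0.5 mg/kg replicates 1 and 2, Apoa4 -0.0374 by limma-voom. Others were Apoa4 -0.1215, Apoc3 -0.0154 and Lcat -0.0368 with the length slope, Apob 0.0097 without 5 mg/kg replicates 6 and 8. With 1 mouse left out, Apoa4 ran from -0.1635 to 0.2681 and Mttp ran from -0.1301 to 0.0051. The lowest values against 0 mg/kg in these ranges all came with 0 mg/kg replicate 5 left out, which is the single control mouse of the 619 run. Genes called over the whole table at 50 against 0 mg/kg numbered 1 in the edgeR fit with dose and run, 3 by DESeq2, 0 without the run term, 0 in the 619 run, 4 in the 601 run and 0 to 1 with 1 mouse left out. At 5 against 0 mg/kg there were 0, with 4 by DESeq2 and 0 to 3 with 1 mouse left out (3 without 0 mg/kg replicate 4). At 0.5 against 0 mg/kg there were 0, with 7 by DESeq2 and 33 in the 601 run. Between the runs there were 13, with 108 by DESeq2, 6 by limma-voom, 33 with the length slope, and 2 (without 5 mg/kg replicate 4) to 60 (without 0 mg/kg replicate 4) with 1 mouse left out. In the interaction there were 0, and 0 to 2 with 1 mouse left out (2 without 50 mg/kg replicate 1).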
